A study of Mus musculus with 4 samples.

Results

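The Cyp2b genes of the mouse encode cytochrome P450 monooxygenases of subfamily 2B, and 5 of them were represented on the arrays: Cyp2b9, Cyp2b10, Cyp2b13, Cyp2b19 and Cyp2b23. Their members were taken as all non-control probes that carried 1 of these 5 gene names, which gave 8 probes for 5 of the 37074 gene names on the array. The family was chosen from earlier results of these same arrays, so its values are a description and none of them was tested. Each of the 4 groups of C57BL/6 wild-type mice was measured on 1 one-colour array of total liver RNA pooled from 5 mice: females given aristolochic acid type I (AAI) at 5 mg/kg/day (female AAI), females given corn oil (female oil), males given AAI at 2 mg/kg/day (male AAI) and males given corn oil (male oil). Injections were intraperitoneal, 5 days per week for 3 weeks, in mice given as 6 weeks old in the labels. Because a group was 1 pooled sample on 1 array, the spread between mice could not be measured and no p-value was computed. Sex and dose differed together between both AAI groups and cannot be told apart there.

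CYP2B enzymes sit in the endoplasmic reticulum of hepatocytes, where they oxidise drugs, plant compounds and steroids with electrons passed on by cytochrome P450 reductase. Cyp2b10 is the standard target gene of the constitutive androstane receptor CAR, a nuclear receptor that phenobarbital-like compounds activate and that binds DNA with the retinoid X receptor. Cyp2b9 and Cyp2b13 are known as genes of the female mouse liver that the male, pulsatile pattern of growth hormone keeps low through STAT5b, Cyp2b19 is known from the epidermis, and AAI is a nephrotoxic and carcinogenic nitrophenanthrene of Aristolochia plants.

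The probe that reads a gene decides what its signal means, so stretches of the probes of the 3 expressed members are shown. All positions of probes are those of the array design on mm9, all on chromosome 7, and the exon or UTR class of these positions was not analysed here. Probe 1 of Cyp2b10 (A_55_P2044653, transcript NM_009999) lay at chr7:26711522-26711581, probe 2 of Cyp2b10 (A_52_P472486, same transcript) at chr7:26702056-26702115, the Cyp2b9 probe (A_51_P467076, NM_010000) at chr7:26995607-26995666 and the Cyp2b13 probe (A_52_P289091, NM_007813) at chr7:26880905-26880964. The capitals mark the longest run of bases shared by the first Cyp2b10 probe and the Cyp2b9 probe, which was 10 of 60 bases. The other stretches, in lower case, share no run as long with a probe of another member.
Cyp2b10 probe 1, bases 31 to 60: gtgctaatggactctgtaTAAGGTCTGAat
Cyp2b9 probe, bases 1 to 30: TAAGGTCTGAtttctatgtctacagacttg
Cyp2b13 probe, bases 1 to 30: agagctgctggaaactagactgtatgttgc
Cyp2b10 probe 2, bases 1 to 60: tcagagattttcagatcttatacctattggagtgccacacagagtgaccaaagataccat

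None of these 4 probes shared a run of 15 bases with a probe of any other gene on the array. Probes were compared only with probes, and these begin at different positions of their transcripts (1756 for Cyp2b10 probe 1 and 1804 for Cyp2b9). The shared runs therefore cannot show whether a probe tells the transcripts of the members apart. The design lists the Cyp2b10 transcript as a further target of the Cyp2b9 probe. How much of the Cyp2b9 signal came from Cyp2b10 RNA was not tested.

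The strongest pattern among the members was that of sex. Cyp2b9, Cyp2b10 and Cyp2b13 were bright in the control females and far lower in the control males, though still well above background there. In AAI-treated males all 3 were far higher than in control males. In females given AAI the same genes moved apart: Cyp2b10 was lower, Cyp2b9 slightly lower and Cyp2b13 higher than in female controls. Cyp2b19 stayed close to background and Cyp2b23 was not well above background on any of the 4 arrays.

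Cyp2b9, a female-predominant member, had a normalized signal (log2 of the quantile-normalized intensity) of 15.57 in female oil, 15.14 in female AAI, 8.87 in male oil and 14.15 in male AAI. Only the male control array was low, and the other 3 arrays lay between 14.15 and 15.57. Before normalization, the processed signal of male AAI was 17500 against 509 in male oil. The difference between male AAI and male oil was 5.28 on the log2 scale, a 39-fold higher signal, with an error of 0.20 from the scanner's own error model. Between the female arrays it was -0.43 with the same error of 0.20, which is less than 2-fold.

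Cyp2b10, the CAR target, was read by 2 probes. Probe 1 gave 16.04 in female oil, 14.80 in female AAI, 9.82 in male oil and 14.17 in male AAI. Probe 2 gave 12.35, 10.83, 5.88 and 8.65 in the same order of groups. Both probes put the 4 arrays in the same order, with female oil highest and male oil lowest. In females the log2 ratio of AAI to oil was -1.23 at probe 1 and -1.52 at probe 2, and these ratios differed by 0.28, close to the scanner error of 0.29 of that difference. In males the signal was higher by 4.35 at probe 1 and by 2.77 at probe 2, 20.4-fold and 6.82-fold. These 2 male ratios differed by 1.58, which is 5.07 times the scanner error of their difference and well above 0.24, the median standard deviation (SD) between probes of 1 gene in this comparison. The direction was shared by both probes, and the size in males was not. With the normexp background correction, which adds an offset of 50, the male ratio of probe 2 was 1.86.

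Cyp2b13, the nearest relative of Cyp2b9, gave 13.44 in female oil, 14.20 in female AAI, 6.19 in male oil and 10.06 in male AAI. Its order among the arrays therefore differed from that of Cyp2b10, with female AAI highest. AAI and oil females differed by 0.76 with a scanner error of 0.20, a 1.70-fold higher signal, and AAI and oil males by 3.87 with an error of 0.23, a 14.6-fold higher signal. With normexp the male ratio was 2.90.

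**Figure D1:**
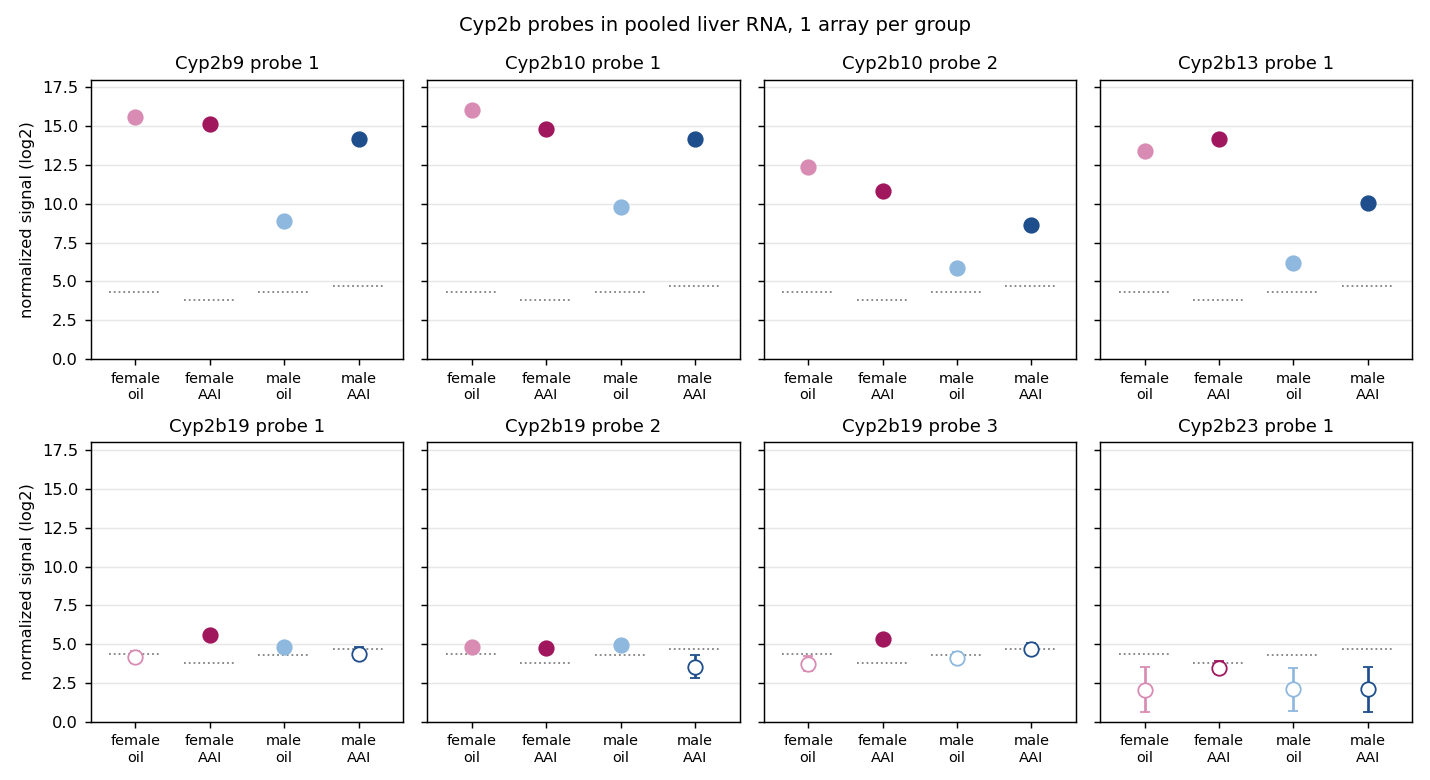
Normalized signal (log2) of each Cyp2b probe on the 4 arrays, 1 array of pooled RNA per group. Filled circles are well above background and open circles are not, bars are the scanner's error (smaller than the symbol where not visible), and dotted lines mark the lowest signal well above background on that array. Cyp2b9, Cyp2b10 and Cyp2b13 were lowest in male oil, while the Cyp2b19 and Cyp2b23 probes lay near or under the dotted lines.

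Cyp2b19, the epidermal member, had 3 probes, none of which was well above background on all 4 arrays. Probe 1 (A_55_P2080220, NM_007814, chr7:27557545-27557604) gave 4.17 in female oil, 5.59 in female AAI, 4.81 in male oil and 4.38 in male AAI, and was above background in female AAI and male oil. Probe 2 (A_52_P421626, chr7:27550443-27550502) gave 4.84, 4.77, 4.96 and 3.55 in the same order and fell under background in male AAI. Probe 3 (A_55_P2482833, NM_007814, chr7:27556890-27556949) gave 3.73, 5.30, 4.11 and 4.71 and was above background in female AAI. Against the lowest signal well above background of the female control array, 4.34, probe 1 was at least 2.38-fold and probe 3 at least 1.95-fold higher in female AAI. Probe 2, which was measured on both female arrays, differed by -0.08 with an error of 0.35, and with normexp the bound of probe 1 was 0.41 on the log2 scale, under 2-fold. The Cyp2b19 probes thus disagreed, and no more than a signal near background was measured. Probe 2 is listed for another transcript than NM_007814, the target of probes 1 and 3, and whether this mattered was not tested.

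Cyp2b23 had 1 probe (A_55_P2162645, NM_001081148, chr7:27450250-27450309, minus strand), whose signals of 2.05 in female oil, 3.48 in female AAI, 2.08 in male oil and 2.09 in male AAI were all not well above background. Its sequence shared a run of 29 bases with a probe of Zcchc16, the longest run of any member with another gene. The end of the probe, shown because it is a 4-base repeat that many transcripts could hold, reads as follows.
Cyp2b23 probe, bases 31 to 60: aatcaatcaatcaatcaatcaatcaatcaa

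In the comparison of AAI with oil in males, 3 of the 5 members were at least 2-fold higher, none was at least 2-fold lower, 1 (Cyp2b19) was not well above background in male AAI, where only the least size of a difference is known, and 1 (Cyp2b23) was not measured. Over all 30495 genes the shares past 2-fold were 3.48% higher and 4.52% lower. The median log2 ratio of the 3 members measured on both arrays was 4.35, against 0.02 for the 28400 genes well above background on both. Among these genes Cyp2b9 ranked 35 from the highest, Cyp2b10 ranked 56 and Cyp2b13 ranked 83. They were also the 3 highest of the 88 cytochrome P450 genes measured there, a class with 9 genes past the 2-fold mark upwards and 14 downwards and a median of -0.12.

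In the same comparison in females, 1 member (Cyp2b10) was at least 2-fold lower and 1 (Cyp2b19, on a bound at 1 of its probes) at least 2-fold higher. The shares over 31662 genes were 3.08% lower and 1.35% higher. Among 90 cytochrome P450 genes, with 4 past the 2-fold mark downwards and 3 upwards, Cyp2b10 ranked 4 from the lowest, Cyp2b9 ranked 13 from the lowest and Cyp2b13 ranked 9 from the highest. The ratios of Cyp2b13 and Cyp2b10 (probe 1) differed by 2.00, which is 6.92 times the scanner error of 0.29 of that difference, and those of Cyp2b9 and Cyp2b10 by 0.80, 2.79 times the error. The 3 members that were all higher in AAI males thus had different ratios in AAI females, by more than the scanner's error. That error covers neither the spread between mice nor the differences between probes. The ratios of the 2 Cyp2b10 probes differed by 0.28 in females and by 1.58, or 5.07 times the error, in males.

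Between the control arrays, female oil was higher than male oil by 6.70 for Cyp2b9, 6.22 and 6.47 for the Cyp2b10 probes and 7.24 for Cyp2b13, which are 104-fold, 74.7-fold, 88.5-fold and 151-fold. So 3 of 5 members were at least 2-fold higher in control females, where 1.84% of 30871 genes were, and none was lower, against 3.81% of all genes. Cyp2b13 ranked 5, Cyp2b9 ranked 6 and Cyp2b10 ranked 8 among 29097 genes measured on both control arrays, and they were the 3 highest of 89 cytochrome P450 genes. The widest gap among these 4 ratios, between Cyp2b13 and probe 1 of Cyp2b10, was 1.02, which is 3.34 times the scanner error. With normexp, the ratio of Cyp2b10 probe 2 was 5.29 and that of Cyp2b13 was 6.20. This comparison shares the male control array with the male AAI comparison and the female control array with the female one, so a high or low value on a control array enters both, and the values are set side by side only.

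Set against the female control level of the same probe, male oil held 0.959% for Cyp2b9, 1.34% and 1.13% for the Cyp2b10 probes and 0.661% for Cyp2b13. Male AAI held 37.4% for Cyp2b9, 27.3% and 7.71% for the Cyp2b10 probes and 9.65% for Cyp2b13. None of the 3 genes reached the female control level in treated males. In female AAI the shares were 74.2%, 42.5% and 34.9%, and 170% for Cyp2b13. The gap between the AAI groups, a contrast added after the values were seen, was 0.99 for Cyp2b9, 0.64 and 2.18 for the Cyp2b10 probes and 4.14 for Cyp2b13, so 1 of 5 members (Cyp2b13) was at least 2-fold higher in female AAI by its brightest probe, and none was lower. Over 31450 genes the shares were 1.08% higher and 3.22% lower.

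**Figure D2:**
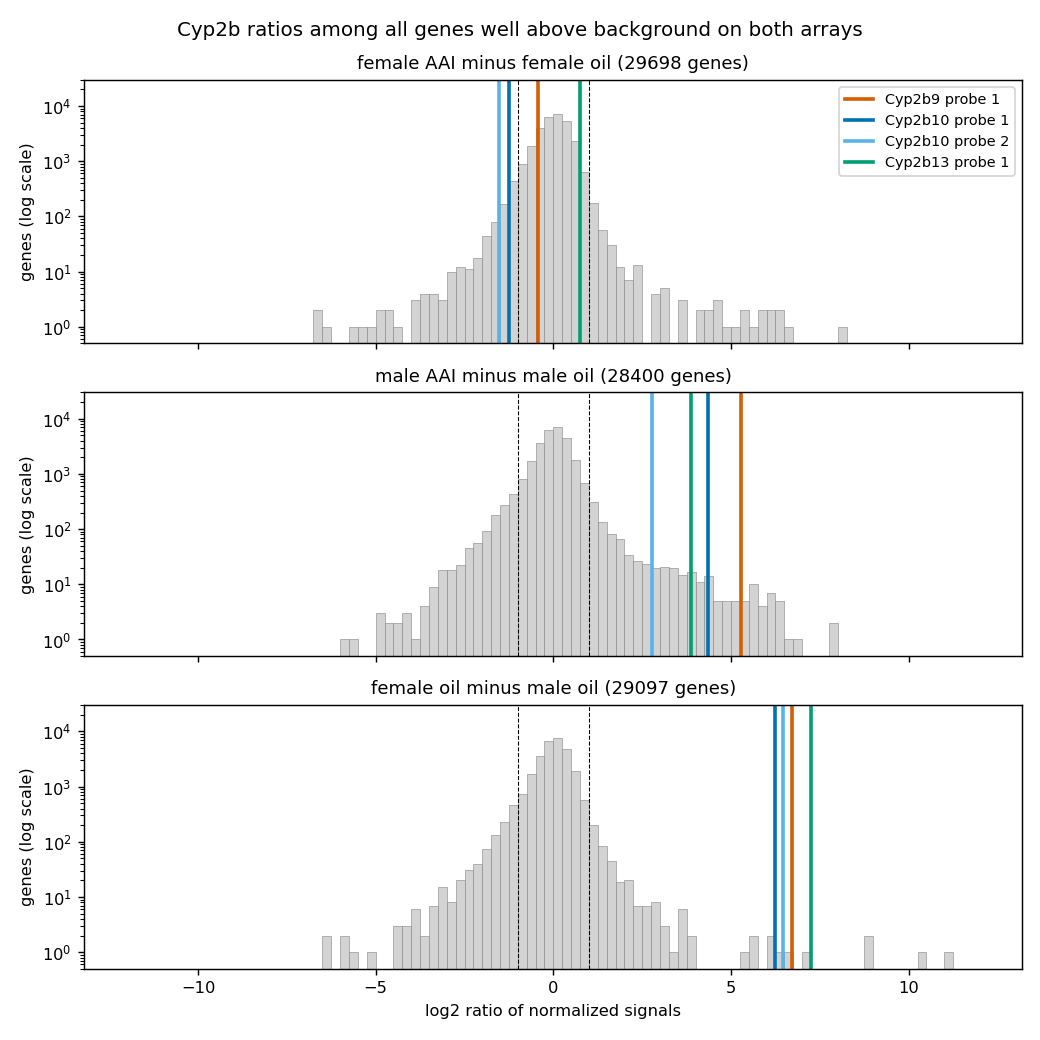
Distribution of log2 ratios over all genes well above background on both arrays (grey, number of genes on a log scale) in 3 comparisons, with the 4 probes of Cyp2b9, Cyp2b10 and Cyp2b13 as coloured lines and dashed lines at 2-fold. The lines lie on both sides of 0 in females given AAI, between 2.77 and 5.28 in males given AAI and between 6.22 and 7.24 in control females against control males.

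All 5 genes lie on chromosome 7 in a cluster of cytochrome P450 genes of families 2a, 2b, 2f, 2g, 2s and 2t, which holds 13 protein-coding genes in the RefSeq table used (GRCm38.p6). Cyp2b10, Cyp2b13 and Cyp2b9 follow each other without another protein-coding P450 gene of these families between them, while Cyp2b23 and Cyp2b19 lie beyond Cyp2a4. The neighbours Cyp2a4 and Cyp2a5, coumarin and steroid hydroxylases that CAR can also induce, had male AAI ratios of 0.91 and 0.65 and female ratios of 0.46 and 0.35. Cyp2g1, an olfactory P450, was at least 2-fold higher in both sexes, by 1.61 in males and 1.19 in females. Among the 8 neighbours measured it was the only one past 2-fold in either AAI comparison, and the medians were 0.70 in males and 0.20 in females. Scaled to the 75th percentile, 3 of these 8 (Cyp2g1, Cyp2a4 and Cyp2a22) were at least 2-fold higher in males. The rest were Cyp2a22 (0.99 and 0.85 in males and females), Cyp2s1 (0.75 and -0.60), Cyp2t4 (0.11 and -0.22), Cyp2a12 (-0.41 and 0.05) and Cyp2f2 (-0.95 and -0.24). The large male ratios were those of the 3 neighbouring 2b genes, and the next protein-coding genes of the cluster on either side, Cyp2s1 and Cyp2a4, were under 2-fold (Cyp2a4 not with scaling to the 75th percentile).

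**Figure D3:**
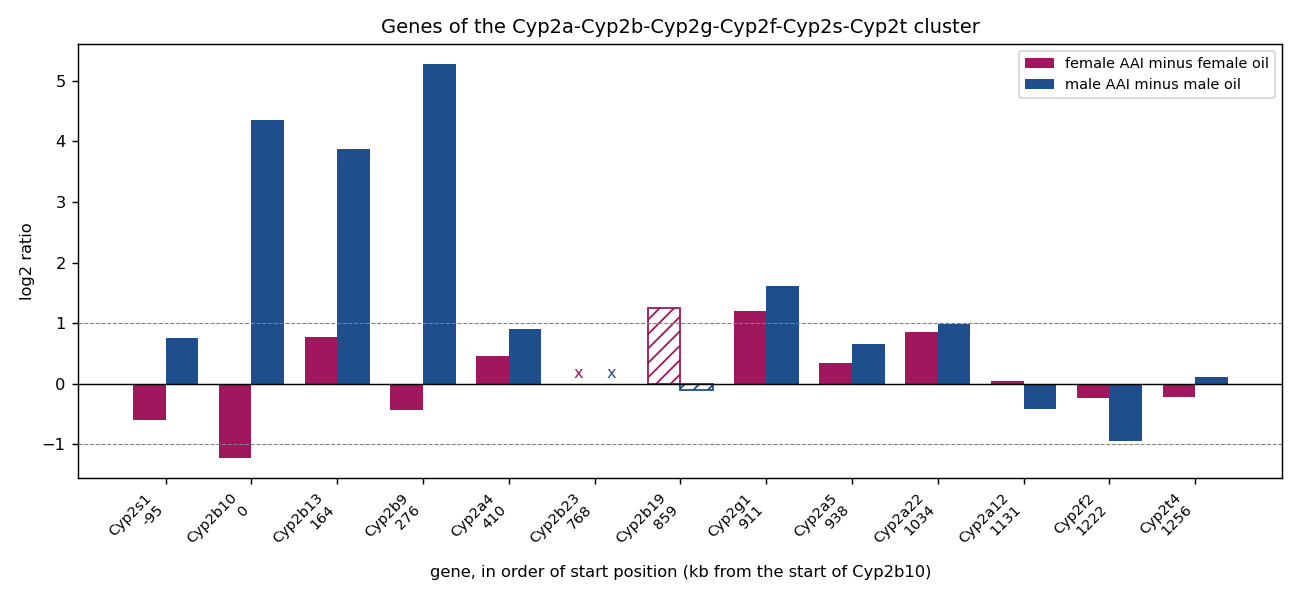
Log2 ratios of AAI against oil in females and males for the genes of the cluster that have a probe, in order of their start (kb from the start of Cyp2b10). Solid bars are measured on both arrays, hatched bars are bounds, x marks a gene not well above background on either array, and dashed lines mark 2-fold. Cyp2b10, Cyp2b13 and Cyp2b9 carry male bars of 4.35, 3.87 and 5.28, and no other bar exceeds 1.61.

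Since Cyp2b9, Cyp2b13 and Cyp2b10 were high and low on the same arrays in males, the windows around their starts are shown, from 250 bases before to 50 after the annotated start (RefSeq, GRCm38.p6, plus strand). Capitals mark matches to the searched motifs, which were the nuclear receptor core site AGGTCA, its direct repeat with 4 bases between both copies, the STAT core TTCNNNGAA and the TATA motif TATAAA, each on both strands, where a match to the repeat also holds the core site.
Cyp2b9, chr7:26173159-26173458: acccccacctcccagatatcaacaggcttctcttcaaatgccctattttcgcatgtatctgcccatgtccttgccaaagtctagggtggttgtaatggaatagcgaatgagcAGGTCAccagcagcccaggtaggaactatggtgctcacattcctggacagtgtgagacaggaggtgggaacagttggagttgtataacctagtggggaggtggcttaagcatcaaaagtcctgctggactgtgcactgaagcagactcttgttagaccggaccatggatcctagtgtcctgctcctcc
Cyp2b13, chr7:26061245-26061544: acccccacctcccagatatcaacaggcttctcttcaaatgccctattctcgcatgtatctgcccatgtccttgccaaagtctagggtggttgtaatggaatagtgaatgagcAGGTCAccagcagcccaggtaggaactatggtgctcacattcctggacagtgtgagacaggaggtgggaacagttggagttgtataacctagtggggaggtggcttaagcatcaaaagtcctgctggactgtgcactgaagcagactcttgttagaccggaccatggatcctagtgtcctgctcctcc
Cyp2b10, chr7:25897408-25897707: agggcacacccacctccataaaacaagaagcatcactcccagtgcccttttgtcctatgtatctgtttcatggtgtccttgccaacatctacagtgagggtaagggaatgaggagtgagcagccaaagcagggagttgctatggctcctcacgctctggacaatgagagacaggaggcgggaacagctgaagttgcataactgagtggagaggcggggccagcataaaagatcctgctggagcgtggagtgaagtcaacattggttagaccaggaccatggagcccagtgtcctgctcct

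The Cyp2b9 and Cyp2b13 windows were identical at 298 of 300 bases. The differences, counted from 1 at the 5′ end with the Cyp2b9 base first, were T48C and C104T. Cyp2b10 matched either of them at 229 of 286 aligned bases, 80.1%. The core site AGGTCA occurred once each in the windows of Cyp2b9, Cyp2b13, Cyp2b19 and Cyp2b23, 4 of 5 members, and in 16.3% of the 32851 windows of this length in the table. In pairs the 5 windows were identical at 78.7% to 99.3% of aligned bases. The 4 matches are therefore not independent and cannot be read as enrichment. None of the 5 windows held TTCNNNGAA (8.30% of all windows), TATAAA (13.6%) or the direct repeat (5 windows in all, 0.0152%). Cyp2b10 had no match in its window, but inexact matches and sites outside the windows were not searched. Cyp2b9 and Cyp2b13, with almost the same window, differed by 1.19 in their female AAI ratios and by 1.42 in their male ones.

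The receptors CAR and PXR and the genes known to act with them were counted next. Of 22 genes of this machinery, 1 was at least 2-fold higher and 2 lower in AAI males (median -0.11), and 2 were lower and 0 higher in AAI females (median -0.01), where the medians over all tested genes were 0.00 and 0.04. Nr1i3, which encodes CAR, had ratios of 0.38 in males and 0.25 in females. Nr1i2, which encodes PXR, had -0.28 in males and was lower by the ratio -1.22 in females. Rxra, the partner of both receptors, had -0.36 and -0.22 at its brightest probe and 0.57 and 0.05 at its other one, and Por, the reductase that supplies P450 enzymes with electrons, 0.50 and 0.31. In males Ppargc1a, a coactivator, was higher by 1.29, and Egfr and Hsp90aa1, whose products hold CAR inactive or in the cytoplasm, were at -1.70 and -1.26. Cebpb, a liver transcription factor, was at -1.07 in females. Set against control males, control females had 3 of these 22 genes at least 2-fold higher and 1 lower (median -0.11). Ppargc1a was at 1.63 there, Egfr at -2.73 and Hsp90aa1 at -0.48. Ppargc1a, Egfr and Hsp90aa1 had the same sign there as in AAI males, but they were picked for passing 2-fold in AAI males. Hsp90aa1 was under 2-fold between the controls. The other genes of this list at least 2-fold higher in control females were Nr0b2 and Gadd45b. In AAI males Nr0b2 had the opposite sign (-0.13) and Gadd45b the same sign (0.49), both under 2-fold. Whether these genes had a part in the Cyp2b values was not tested.

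Other known targets of CAR and PXR were counted as well. Of 31 tested in males, 1 was at least 2-fold higher (3 with scaling to the 75th percentile) and 3 lower, with a median of 0.09. Without that scaling the shares over all genes were 3.48% higher and 4.52% lower in males, and 1.35% and 3.08% in females. The 1 higher gene, Akr1b7 (4.85), is an aldo-keto reductase that also marks the adrenal cortex. Cyp2c29, a CAR target, had 0.13, and Cyp3a11, the main PXR target, -1.10, with Ces2c at -2.01 and Cyp2c55 at -1.20. In females 2 of 32 were higher, the glutathione transferase Gsta2 (1.68) and the aldehyde dehydrogenase Aldh1a7 (1.01), and 1 was lower, Cyp3a44 (-3.47), with a median of 0.16. Cyp3a44 is a female-predominant P450 (5.52 higher in female than male controls), and its spot on the male AAI array held the background in place of its signal and was not used. In control females against control males Slco1a4 (1.46) and Sult1d1 (1.06) were higher and Ces2c (-2.10) and Alas1 (-1.94) lower.

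Genes of sex-biased liver expression outside the family were counted in the same way. Of 23 genes listed as female-biased, 18 were at least 2-fold higher in control females than control males and none lower (median 1.74). In AAI males 10 of 20 tested were at least 2-fold higher and 1 lower (median 1.096), among them the sulfotransferase Sult3a1 (3.38) and the repressor Cux2 (3.25). Cyp3a16 was the 1 lower gene (-1.23). A second, dimmer probe of Sult3a1 gave 4.99. Sult2a1 and Sult2a2, sulfotransferases that were higher in control females by at least 12.64 and by 11.11 on the log2 scale, had signals of 5.13 and 6.36 in male AAI against 16.93 and 16.50 in female oil. In 7 of the 22 listed genes whose male AAI signal had not been replaced by a background value, male AAI was above female oil. Among them were Cux2 (8.78 against 8.40), Sult1e1 (9.94 against 8.61) and Hao2 (9.19 against 8.27). The 7 also held Lpl and Cyp2a4, which were not 2-fold higher in control females than control males (-0.49 and 0.16). In AAI females 1 of 23 was higher (Sult1e1, 1.05) and 3 were lower (Cyp3a44, Hamp2 at -2.10 and Sult2a1 at -1.04), with a median of -0.20.

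Of 21 male-biased genes, 11 were at least 2-fold lower in AAI males and none higher (median -1.47, or -1.21 with scaling to the 75th percentile). The lowest were the steroid dehydrogenase Hsd3b5, with a bound of -9.89, the transporter Slco1a1 (-5.78) and the fatty acid elongase Elovl3 (-5.71). In control females against control males 12 were lower and none higher (median -2.19), with Hsd3b5 at a bound of -10.26, the fatty acid hydroxylase Cyp4a12a at -6.35 and Elovl3 at -5.88. In AAI females 5 were lower and 1 higher (Gstp1, 1.55), and the lowest 3 were the major urinary protein genes Mup20 (-3.89), Mup1 (-3.63) and Mup21 (-3.27), which belong to a family of near-identical copies.

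**Figure D4:**
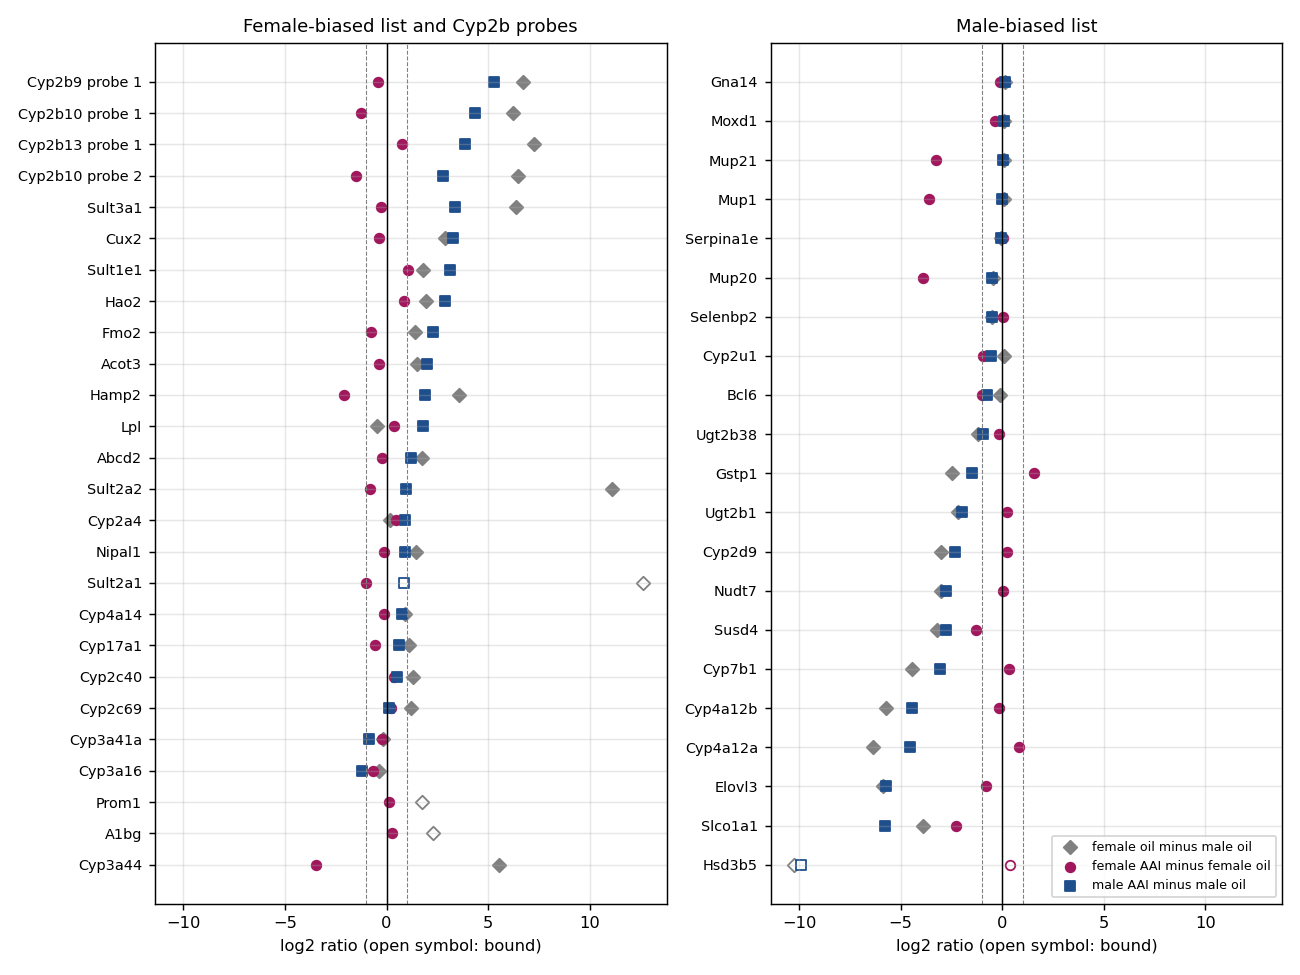
Log2 ratios of single genes in 3 comparisons for genes of the female-biased list with the Cyp2b probes (left) and the male-biased list (right). Open symbols are bounds against background, a missing symbol is a gene not measured, and dashed lines mark 2-fold. The Cyp2b probes lie between 2.77 and 5.28 in male AAI against male oil, with Sult3a1 at 3.38, while Hsd3b5 lies at -9.89.

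Of the 14 genes of growth hormone and STAT5 signalling, 2 were at least 2-fold higher in AAI males and none lower (median -0.10). They were Cux2, which also belongs to the female-biased list, and Socs3 (1.20), an inhibitor of cytokine signalling. Ghr, the growth hormone receptor, was at -0.70 in males and -0.57 in females at its brightest probe. Its other probes gave -1.12, -0.82 and -0.53 in males, the first of them past 2-fold. In the same order they gave -0.33, 0.78 and -0.33 in females. Stat5b was at -0.29 and -0.13 at its brightest probe and at -0.27 and 0.39 at its other one. In females 1 was higher (Socs3, 1.07) and 2 lower (Onecut1 at -1.31 and Socs2 at -1.15), with a median of -0.27. Between the control arrays Cux2 (2.87) and Esr1 (1.18) were higher in females and Onecut1 (-1.65) was lower.

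By profile over the 4 arrays, the genes nearest to Cyp2b9 that are reported here among 28188 others above background on all arrays were Cyp2b10 (distance 0.97, the square root of the summed squared differences of centred log2 values), Slc22a27 (1.24), Sult3a1 (1.53) and Slc22a29 (1.83). For Cyp2b10 they were Cyp2b9, Slc22a27 (1.46), Sult3a1 (1.50), Slc22a29 (1.67) and Slc22a26 (2.07). For Cyp2b13 they were Slc22a27 (1.37), Sult3a1 (1.38), Slc22a29 (1.82) and Cyp2b9 (2.26). The 3 members thus shared Slc22a27, Sult3a1 and Slc22a29, organic anion transporters of the SLC22 family and a sulfotransferase, over only 4 arrays. Because the Cyp2b9 probe also lists the Cyp2b10 transcript as a target, the profiles of these genes may not be independent, which was not tested. Slc22a27 had 11.80 in female oil, 12.07 in female AAI, 5.64 in male oil and 9.50 in male AAI.

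Marker RNA of other tissues differed between the same arrays and is given for its whole lists. Of 10 hepatocyte markers all were well above background on all arrays, and none was 2-fold changed by AAI in either sex. Of 15 skeletal muscle markers 15 were at least 2-fold higher in male AAI and 14 in female AAI, and the log2 of their summed signal was 10.92 in female oil, 16.02 in female AAI, 13.05 in male oil and 19.03 in male AAI. Of 9 adrenal cortex markers 7 were higher and 1 lower in male AAI (summed 12.55 in male oil and 15.89 in male AAI) and none changed in female AAI, and of 8 adrenal medulla markers 5 were higher in male AAI and none in female AAI. Of 10 fat markers 7 were higher in male AAI and 3 in female AAI, and of 6 red cell markers 4 were lower in male AAI. In male AAI, 1 of 7 kidney markers tested was higher and 1 lower, none of 6 intestine markers passed 2-fold, 2 of 8 lung markers were lower and none higher, and 1 of 7 keratinocyte markers was higher. In female AAI none of the kidney, intestine or lung markers passed 2-fold, 1 of 7 keratinocyte and 1 of 6 red cell markers were higher, and 1 adrenal medulla marker was lower. Of 9 immune cell markers tested none passed 2-fold in male AAI and 2 were lower in female AAI. The part of these tissues in the Cyp2b values was not tested, and in bulk RNA fewer cells of a type and less RNA per cell cannot be told apart. The labels of sex held on all 4 arrays: Ddx3y and Eif2s3y, on the Y chromosome, were well above background on both male arrays (9.14 and 11.66 in male oil, 9.03 and 11.52 in male AAI) and on neither female one. No Cyp2b spot was saturated, flagged as an outlier or replaced, and across the arrays 74.7% to 81.5% of probes were well above background.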

How the data were processed

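Total liver RNA of 5 mice per group was hybridised by the authors to 1 one-colour Agilent mouse array per group, and the deposited scanner files hold spot intensity from Feature Extraction 10.5.1.1 (processed signal, mean signal, background and its error) for 59305 non-control spots, 56605 probes (design build mm9). The female oil and male AAI files hold values to 3 significant digits, and the female AAI and male oil files hold more. Each comparison therefore sets a file of the first kind against one of the second. A deposited table holds the authors' quantile-normalized intensity, used as an alternative, and its flags were not used. Here, spots flagged as outliers were left out, spots of a probe averaged on the log2 scale, and 56495 probes with a value on all 4 arrays quantile normalized (Python 3.11.15, numpy 2.4.6, pandas 2.3.3). A gene was read by its brightest probe. The 2-fold threshold was applied to genes whose probe passed the scanner's test for signal over background in 1 or both groups compared. Where 1 group failed it, the ratio is a bound against the higher of its own signal there and the lowest signal well above background. Spots whose processed signal lay within 1% of the background used while the background-subtracted signal was over 10 times larger, 26 on female oil and 92 on male AAI, were not measured. Errors are those of the scanner's model, and precision is limited by having 4 arrays. Ratios were checked on simulated data. Normexp was run with limma 3.58.1. Genes named outside the family were up to 3 highest and 3 lowest past 2-fold in each list and comparison, 9 fixed genes (Nr1i3, Nr1i2, Rxra, Por, Cyp3a44, Cyp3a11, Cyp2c29, Ghr, Stat5b), the cluster neighbours, the 5 nearest profiles of each member and some female-biased genes with male AAI above female oil. A gene among these is not reported here, though list counts and medians include it. The members and the 17 gene lists were chosen with earlier results of these data known. Promoter windows were matched by symbol for all 5 members, and proteins were not analysed here.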

Additional observations from a re-analysis of the deposited data

Results flagged for a closer look

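Of the 8 Cyp2b probes, 4 were well above background on all 4 arrays. At 3 of these 4, AAI and oil differed in opposite directions in females and males. Each difference exceeded the SD between probes of 1 gene (0.25 in females and 0.24 in males). The other probe, that of Cyp2b13, was higher with AAI in both sexes (0.76 in females and 3.87 in males). The share of all probes that meet the same rule is not given here. The male log2 ratio minus the female one was 5.71 for Cyp2b9 (5.28 against -0.43), 5.59 for probe 1 of Cyp2b10 (4.35 against -1.23) and 4.29 for probe 2 of Cyp2b10 (2.77 against -1.52). With 1 array per group the difference between the sexes was not tested, and dose differed with sex. The female oil and male AAI files hold values to 3 significant digits and had 26 and 92 replaced spots. The female AAI and male oil files hold more digits and had 0. The male ratio minus the female one cannot be told apart from a difference between these kinds of file. Muscle markers were higher in both AAI arrays, and adrenal and fat markers chiefly in male AAI. Their part in these differences was not tested.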

How the results depend on the processing

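No paired analysis was possible because each group is 1 array, and for the same reason no replicate could be left out. Over 5 other ways of scaling or background correction, no log2 ratio of Cyp2b9, Cyp2b10 or Cyp2b13 changed sign in any of the 3 planned comparisons. With normexp, which adds an offset and so shrinks ratios of dim probes, the male AAI ratio was 4.98 for Cyp2b9 and 2.90 for Cyp2b13, and the ratio of control females to control males 6.42 and 6.20.

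Counts over all genes moved more. In female AAI, genes at least 2-fold higher numbered 983 without normalization, 148 with normexp, 710 with probes averaged, 1070 without the filter on dim probes and 120 at 3-fold (426 otherwise), and lower genes 554 without normalization, 340 with normexp and 222 at 3-fold (974 otherwise). In male AAI, higher genes numbered 526 with normexp, 1782 without the filter and 471 at 3-fold (1060 otherwise), and lower genes 695, 2217 and 491 (1378 otherwise). Between controls, genes higher in females numbered 217, 1247 and 155 (568 otherwise) and lower genes 521, 1815 and 370 (1176 otherwise). Without normalization the median over genes shifted by 0.15 in females, -0.13 in males and -0.14 between controls, and the share of lower among changed genes was 36.0%, 67.1% and 79.6% in place of 69.6%, 56.5% and 67.4%. In females that share was 54.7% with scaling to the 75th percentile, 56.1% with probes averaged and 57.2% without the filter. Of 126 medians of gene lists under an alternative 3 moved by more than the SD between probes, and of 288 list counts 38 moved by over 1.5 times. The cause of these shifts was not tested.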
